A study of Mus musculus with 8 samples.

Results

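The nuclear genes of the mitochondrial ribosome were followed here: 74 genes whose symbol is Mrpl or Mrps with a number, 46 Mrpl and 28 Mrps, out of 30176 genes with a cluster of their own on the array. Copies marked -ps were left out, and each of the 74 genes had 1 cluster of its own, so no choice between such clusters was needed. Mrps18b is also named, with Gm16279, on a shared cluster that was not analysed here. Mrpl30, Mrpl33, Mrpl53 and Mrps6 share their only named cluster with another gene and were not analysed here. All 74 members were tested, with no filter on low signal. The samples are primary mouse cultures in which radial glial progenitors were turned into ependymal cells, the ciliated cells lining the brain ventricles. By their titles, 4 were given 20 ng/ml epidermal growth factor (EGF) when differentiation medium was added and 4 were left untreated, and both groups were kept for 2 weeks in DMEM/F12 with 2% serum. The source names give MLN4924, an inhibitor of cullin neddylation, for the samples titled EGF and DMSO for those titled untreated. Groups follow the titles, and the sources used here do not settle the conflict.

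Mitochondria keep their own ribosome, which translates the few messenger RNAs of the mitochondrial genome into subunits of the respiratory chain and ATP synthase. Its ribosomal RNAs come from mitochondrial DNA, while all of its proteins are encoded in the nucleus, made on cytosolic ribosomes and imported. Mrpl genes encode proteins of the large subunit, which joins amino acids, and Mrps genes mostly those of the small subunit, which reads the messenger. Many have a counterpart in bacterial ribosomes and others are found only in mitochondria.

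The median over all clusters of an array was 4.71 to 4.82 (log2 signal) on EGF arrays and 4.56 to 4.60 on untreated arrays, while the upper quartiles were 6.74 to 6.77 and 6.71 to 6.76. Member means over the 8 arrays lay between 5.46 for Mrpl41 and 12.01 for Mrpl42, so every member was above the array medians. Signals of different clusters are not on 1 scale, and no order of expression among the genes is read from them. Replicates were close: across members the SD within a group had a median of 0.078 on EGF arrays and 0.092 on untreated arrays, and Pearson's r between arrays over the 74 genes was 0.994 to 0.997 within EGF and 0.992 to 0.995 within untreated. Whether replicates are separate cultures is not said in the labels, and p-values cover only the scatter among these arrays, possibly technical. Cell type marker levels differed between the groups. Of 22 measured ependymal markers 22 fell with EGF, with a list mean of 6.09 to 6.14 on EGF arrays and 10.50 to 11.11 on untreated arrays, and Foxj1 and Spag6 were not analysed here. Of 14 microglial markers 14 fell (5.92 to 6.25 on EGF arrays, 8.59 to 9.47 on untreated arrays). Of 11 measured astrocyte markers (12 listed) 10 rose (12.22 to 12.48 on EGF arrays, 10.02 to 10.05 on untreated arrays, for all 11). The other, Gfap, fell under all 4 scalings described below, with a log2 fold change (EGF minus untreated) of -0.485 in the deposited values. Of the 10 rises 9 held under all 4, and that of Slc1a3 did not pass after centring on the median (0.085, limma adjusted p = 0.353). Of 13 measured markers of neuroblasts and neurons (14 listed) 11 fell (6.90 to 6.99 on EGF arrays, 9.02 to 9.54 on untreated arrays). So did 8 of 9 of fibroblasts and mural cells (6.92 to 7.01 on EGF arrays, 8.28 to 9.21 on untreated arrays). Of 10 measured markers of the oligodendrocyte lineage (12 listed) 4 rose and 3 fell, with 2 higher and 2 lower under all 4 scalings. Of the 11 falls among markers of neuroblasts and neurons 10 held under all 4. In these bulk samples fewer cells of a type and less RNA per cell cannot be told apart, and the part of cell makeup in the changes below was not tested.

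The mitochondrial ribosomal protein genes did not move together. Of the 74, 23 rose with EGF and 25 fell (limma, Benjamini-Hochberg adjusted p under 0.05 over all genes), and 26 did not pass. Among all genes tested, 60.5% were called, 39.6% higher and 20.9% lower, against 64.9% of members called in either direction. All genes are mostly dimmer, with a median mean signal of 5.60 against 8.19 for members. Among the 13928 genes with a mean of at least 6, fitted alone, 5870 rose and 5041 fell. In that fit 26 of 72 members rose and 23 fell, smaller shares in both directions than among those brighter genes. The median log2 fold change (EGF minus untreated) of the members was 0.01, with quartiles of -0.27 and 0.28, against a median of 0.17 for all genes and 0.05 for the 13318 genes whose mean signal lies within the members' range. The mean signal over the 74 genes averaged 8.24 ± 0.05 on EGF arrays and 8.18 ± 0.05 on untreated arrays (SD, n = 4 each). Changes were small: 2 members, Mrps31 and Mrpl45, changed at least 2-fold and passed, both upward, where 13.8% of all genes did so (6.32% higher and 7.48% lower). In 47 members the groups did not overlap (63.5%), against 54.2% of all genes. The plot of the 74 fold changes shows an even slope from rises to falls, with no break between them.

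**Figure D1:**
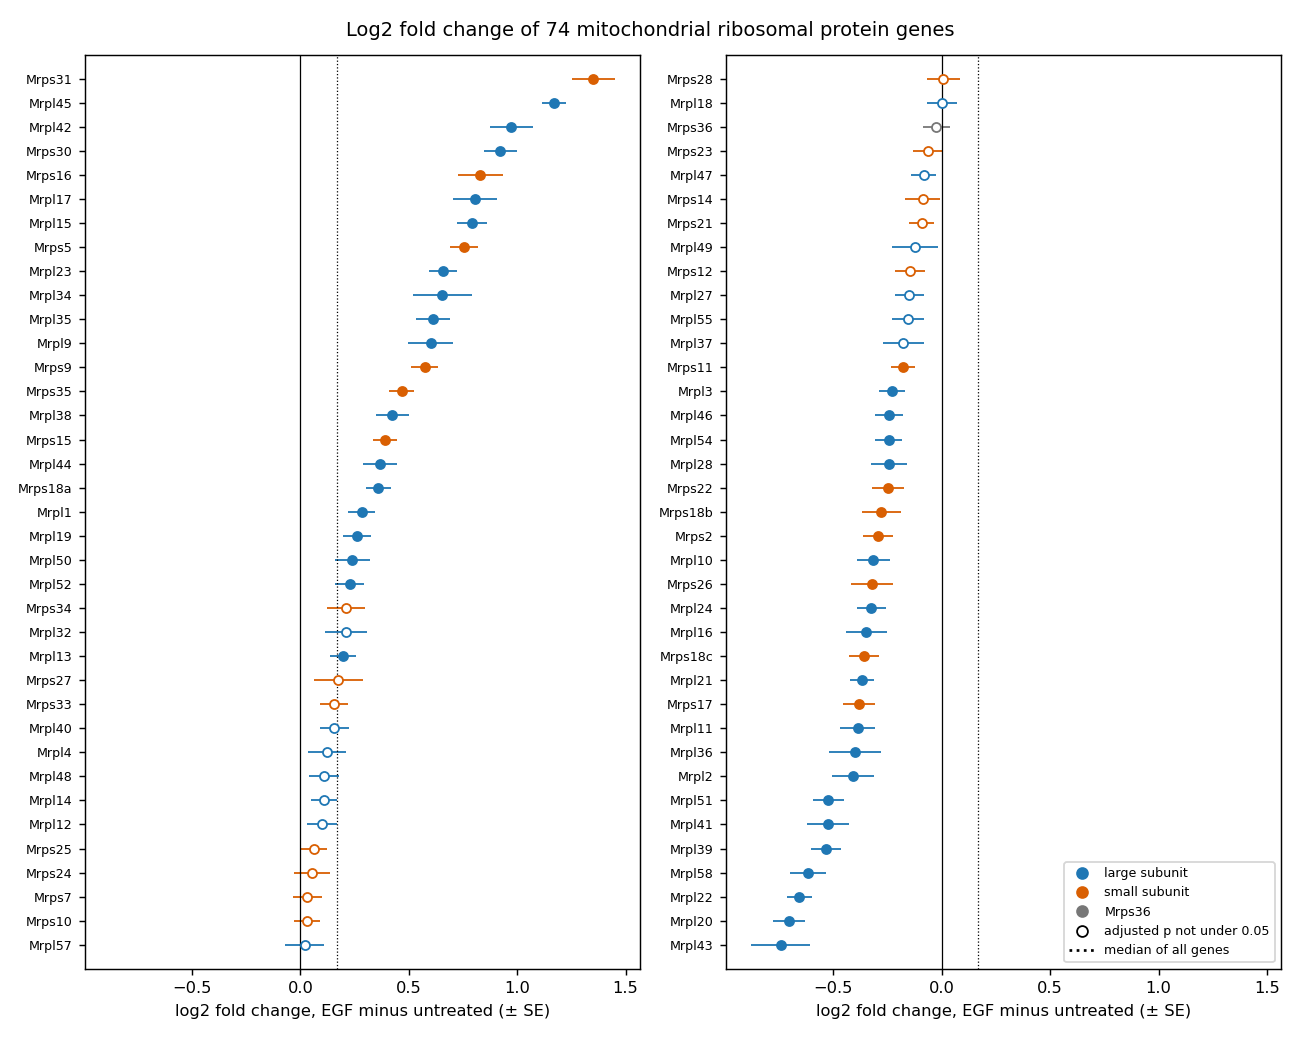
Log2 fold change (x axis, EGF minus untreated, points with SE bars, n = 4 arrays per group) of each of the 74 genes, ordered from the largest rise (top left) to the largest fall (bottom right) and coloured by subunit. Filled points passed an adjusted p under 0.05, the dotted line is the median of all genes (0.17), and values run from 1.35 for Mrps31 to -0.74 for Mrpl43.

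The direction of small changes depended on how the arrays were scaled. Across the deposited values, a further quantile normalization, cyclic loess and centring each array on its median, the median of all genes was 0.17, 0.01, -0.01 and -0.02. The members' median was 0.01, 0.03, -0.11 and -0.17 under the same 4 scalings, so the family as a whole has no settled direction. Of the members, 15 were higher and 25 lower past the threshold under all 4 scalings (20.3% and 33.8%), and 34 met neither. Among all genes these shares were 18.5% and 20.8% (39.3% in either direction). They were not taken for genes of the members' brightness. With cyclic loess 18 members were higher and 31 lower, where 20.7% and 27.6% of all genes were, with quantile normalization 23 and 25 (23.7% and 25.1%), and after centring 15 and 34 (18.7% and 28.1%). All 25 falls held, while 8 of the 23 rises ended after centring on the median. Those 8 were Mrpl38, Mrpl44, Mrps18a, Mrpl1, Mrpl19, Mrpl50, Mrpl52 and Mrpl13, with log2 fold changes of 0.42 or less in the deposited values. Centring lowers the log2 fold change of every gene by the same amount, as EGF arrays had the higher medians. It enlarges falls and lessens rises, so the loss of rises alone was set by its direction. The excess of falls under all 4 scalings is therefore not read as a lean of the family.

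**Figure D2:**
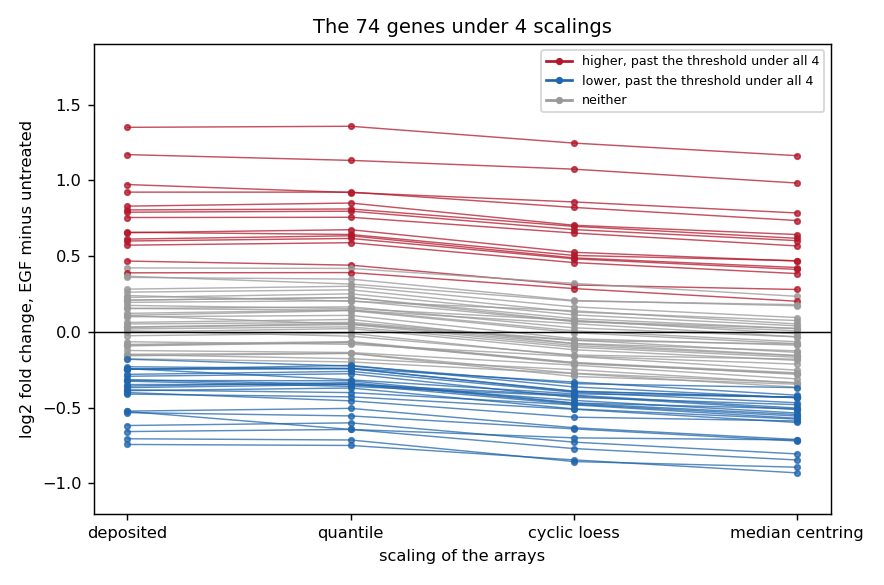
Log2 fold change (y axis, EGF minus untreated) of the 74 genes under 4 scalings of the arrays (x axis), 1 line per gene. Red lines are the 15 genes higher and blue lines the 25 genes lower past the threshold under all 4, and grey lines the other 34, many of which cross 0.

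The largest rises were of proteins from both subunits. Mrps31, a small subunit protein found only in mitochondrial ribosomes, had log2 signals of 9.62, 9.72, 9.47 and 9.52 on EGF arrays, against 8.38, 8.23, 8.35 and 7.97 on untreated arrays. All 4 EGF arrays lay more than 1 unit above the highest untreated array. The change was 1.35 ± 0.10 on the log2 scale (SE; 2.55-fold; limma adjusted p = 1.2e-06). Mrpl45, which holds the ribosome to the inner membrane at the exit of the nascent chain, had 10.50, 10.54, 10.49 and 10.56 on EGF arrays and 9.39, 9.34, 9.37 and 9.31 on untreated arrays. Its spread was the smaller of the pair, with SDs of 0.033 and 0.035, and its rise was 1.17 ± 0.06 (2.25-fold; adjusted p = 4.8e-08). Mrpl42, found only in mitochondria, had 12.65, 12.44, 12.47 and 12.41 on EGF arrays and 11.80, 11.43, 11.43 and 11.42 on untreated arrays, a rise of 0.97 ± 0.10. Here 1 untreated array stood above the other 3 but below every EGF array.

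Mrps30 belongs to the large subunit in spite of its name. It had 9.52, 9.69, 9.57 and 9.53 on EGF arrays, against 8.80, 8.53, 8.72 and 8.57 on untreated arrays, and rose by 0.92 ± 0.08 (adjusted p = 3.4e-06). The next rises were of genes with bacterial counterparts: Mrps16 (0.83 ± 0.10), Mrpl17 (0.81 ± 0.10), Mrpl15 (0.79 ± 0.07) and Mrps5 (0.76 ± 0.06). In each of them the lowest EGF array lay above the highest untreated array. Mrpl23, Mrpl34, Mrpl35, Mrpl9 and Mrps9 rose by 0.57 to 0.66. Mrps31, Mrpl45, Mrpl42, Mrps30 and Mrpl15 also passed a test against a 1.5-fold change (limma treat), and no fall did: 0 members were lower there, also at an unadjusted p under 0.05.

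The largest falls were all of the large subunit. Mrpl43, found only in mitochondria, had 8.60, 8.82, 8.37 and 8.93 on EGF arrays, against 9.41, 9.50, 9.63 and 9.15 on untreated arrays. It fell by 0.74 ± 0.14 on the log2 scale (adjusted p = 9.7e-04), with the widest scatter within groups among the 8 largest falls, though no EGF array reached the lowest untreated array. Mrpl20, whose bacterial counterpart is needed early in assembly of the large subunit, had 6.53, 6.44, 6.35 and 6.28 on EGF arrays and 7.09, 7.10, 7.20 and 7.03 on untreated arrays, and fell by 0.71 ± 0.07 (adjusted p = 1.5e-05). Mrpl22 had 8.10, 8.14, 8.02 and 8.05 on EGF arrays and 8.72, 8.78, 8.76 and 8.68 on untreated arrays, a fall of 0.66 ± 0.06 (adjusted p = 4.9e-06). Both sets of arrays were tight and far apart.

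Mrpl58 is a peptidyl-tRNA hydrolase, known in human cells for releasing nascent chains from stalled mitochondrial ribosomes, and is built into the large subunit. It had 8.23, 8.32, 8.11 and 8.25 on EGF arrays, against 8.77, 8.94, 8.98 and 8.69 on untreated arrays, and fell by 0.62 ± 0.08 (adjusted p = 1.0e-04). Mrpl39, Mrpl41 and Mrpl51, all found only in mitochondria, fell by 0.53 ± 0.07, 0.53 ± 0.10 and 0.52 ± 0.07. Of these, Mrpl41 lay near the dim end, with 5.19 ± 0.12 on EGF arrays and 5.72 ± 0.18 on untreated arrays (SD, n = 4). Mrpl2 fell by 0.41 ± 0.10. The groups of these genes did not overlap.

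**Figure D3:**
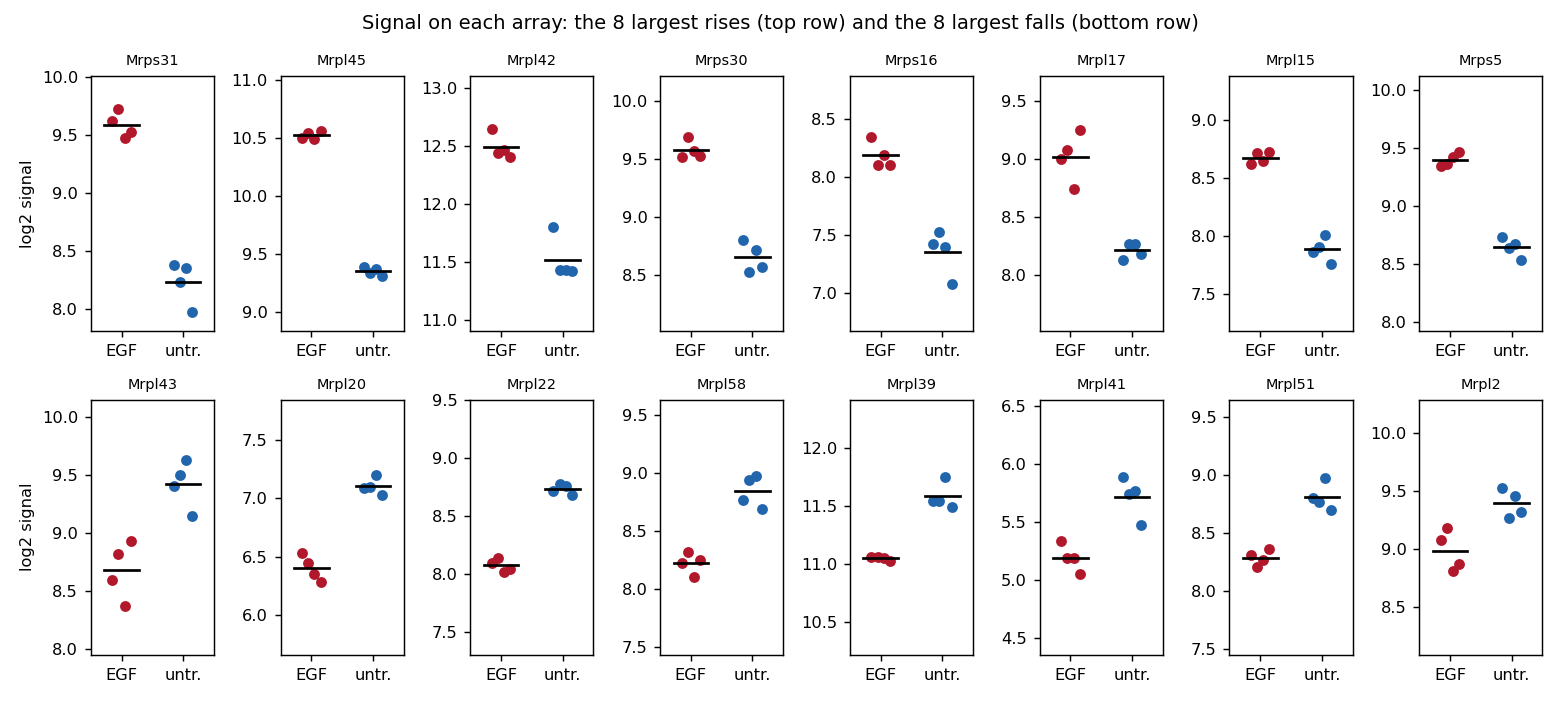
Log2 signal (y axis, each panel spanning 2.2 units) of the 8 members with the largest rises (top row) and the 8 with the largest falls (bottom row) on each of the 4 EGF arrays (red, left) and 4 untreated arrays (blue, right, labelled untr.), with group means as bars. In all 16 panels the groups are apart, by the least in the panel of Mrpl2.

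The region upstream of the start is shown for the 2 largest rises and the 2 largest falls, since genes of 1 ribosome that moved in opposite directions invite a look at whether their promoters carry the same letters. Sequences are from RefSeq (GRCm38.p6), 200 bases ending just before the start, 5′ to 3′ on the gene's strand. Capitals mark the ETS letters CCGGAAG and the E-box CACGTG, while the letters searched for NRF1 (GCGCATGCG) and YY1 (AAGATGG) are in none of the 4. Only these exact letters were searched, and other spellings of a site are not marked. Mrpl45, for instance, holds gcgcacgcg, which is close to the NRF1 letters. Mrps31 is at chr8:22411140-22411339 (plus strand), Mrpl45 at chr11:97315516-97315715 (plus), Mrpl43 at chr19:45006443-45006642 (minus) and Mrpl20 at chr4:155802678-155802877 (plus).
Mrps31: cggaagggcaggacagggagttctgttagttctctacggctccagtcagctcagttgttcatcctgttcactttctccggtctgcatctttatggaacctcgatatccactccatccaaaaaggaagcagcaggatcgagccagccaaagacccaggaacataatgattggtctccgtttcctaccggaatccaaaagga
Mrpl45: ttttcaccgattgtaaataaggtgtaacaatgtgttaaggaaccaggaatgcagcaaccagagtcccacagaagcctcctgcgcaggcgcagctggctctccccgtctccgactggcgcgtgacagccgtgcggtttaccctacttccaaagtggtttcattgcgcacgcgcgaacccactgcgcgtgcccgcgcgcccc
Mrpl43: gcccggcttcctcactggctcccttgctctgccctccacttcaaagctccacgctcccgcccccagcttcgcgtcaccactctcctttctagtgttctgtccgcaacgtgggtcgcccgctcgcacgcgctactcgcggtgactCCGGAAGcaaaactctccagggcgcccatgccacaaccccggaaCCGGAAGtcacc
Mrpl20: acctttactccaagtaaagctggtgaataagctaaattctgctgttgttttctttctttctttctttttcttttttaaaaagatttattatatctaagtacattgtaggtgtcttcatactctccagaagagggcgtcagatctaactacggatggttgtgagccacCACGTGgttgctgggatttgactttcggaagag
Mrpl43 carries the ETS letters at 2 places and Mrpl20 carries 1 E-box. The CCAAT and GC boxes counted below were not put in capitals. Of these, Mrps31 holds CCAAT on the other strand (attgg) and Mrpl43 the GC box on the other strand (ccgccc).

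Over windows from 250 bases before to 50 after the start, read on both strands, 65 of the 74 genes had a sequence, in 71 windows. The ETS letters CCGGAAG stood in 24 of them (33.8%), the YY1 letters AAGATGG in 13 (18.3%) and the NRF1 letters GCGCATGCG in 7 (9.86%). Among all 32851 RefSeq windows these shares were 8.86%, 6.34% and 1.75%. Those windows include genes of any signal, and windows of genes as bright as the members were not counted apart. Whether the higher shares are particular to this family was not tested. NRF1, ETS factors of the GABP type and YY1 are known for promoters of nuclear genes of mitochondrial proteins. Split by direction, the ETS letters stood in 5 of 19 windows of genes that rose and 10 of 26 of genes that fell, the NRF1 letters in 2 and 4, and the YY1 letters in 4 and 2. The CCAAT box, read as CCAAT, was in 39.4% of the members' windows and 37.4% of all windows, and in 9 of 19 windows of genes that rose and 12 of 26 of genes that fell. The GC box GGGCGG was in 53.5% and 35.7%, and in 9 and 12 of the same windows. The E-box CACGTG, the letters bound by Myc among other factors, was in 7 of the members' 71 windows (9.86%), against 7.15% of all windows. It stood in 0 of 19 windows of genes that rose and in 6 of 26 of genes that fell. Since Mrpl2 has 3 windows, those 6 belong to 4 of 24 genes: Mrps18c, Mrpl36, Mrpl2 and Mrpl20. By gene, the E-box was in 5 of 65 members and in 2187 of all 27025 genes with a window. The ETS and YY1 letters can share AAG, but shared no bases in the 4 windows that hold both. The counts are small and cover these exact letters only, so other spellings of a site are missed. A match is a description of letters and not of binding.

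By place in the large subunit, 4 proteins were taken as lying around the peptidyl transferase centre, where amino acids are joined. Of these, 3 fell and 1 did not pass. Among all genes 39.6% rose and 20.9% fell, and of the 13928 with a mean of at least 6, fitted alone, 5870 rose and 5041 fell. These shares also stand behind the counts for the tunnel, stalk and central protuberance below. Mrpl2, Mrpl16 and Mrpl3 fell, by 0.41, 0.35 and 0.23 on the log2 scale, and Mrpl27 had a log2 fold change of -0.15 that did not pass (adjusted p = 0.0735; after centring on the median it did, at -0.34). Mrpl3 had 9.14, 9.03, 9.0 and 8.96 on EGF arrays and 9.31, 9.23, 9.26 and 9.25 on untreated arrays, a small gap without overlap. These places were assigned from known structures with the values already seen, so their counts carry no test.

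The proteins along the tunnel through which the new chain leaves went both ways. Of 7, Mrpl45, Mrpl17 and Mrpl23 rose and Mrpl22 and Mrpl24 fell, all under each of the 4 scalings, while Mrpl4 (0.12, 95% interval -0.07 to 0.32) and Mrpl47 (-0.08, -0.21 to 0.05) did not pass. After centring on the median Mrpl47 was lower and passed (-0.27, adjusted p = 0.0063). The neighbours Mrpl22 and Mrpl23, whose bacterial counterparts line and ring the tunnel, thus differed in sign, at -0.66 and 0.66. Mrpl24 had 10.30, 10.30, 10.18 and 10.17 on EGF arrays and 10.47, 10.54, 10.68 and 10.56 on untreated arrays.

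At the stalk, which recruits translation factors, Mrpl10 and the base protein Mrpl11 fell, by 0.32 ± 0.08 and 0.39 ± 0.08. Mrpl12, the repeated stalk protein that has also been reported to bind the mitochondrial RNA polymerase, had 7.07, 7.14, 7.02 and 6.96 on EGF arrays and 6.94, 7.08, 6.90 and 6.87 on untreated arrays. The arrays of Mrpl12 overlap, and its log2 fold change of 0.10 had a 95% interval of -0.06 to 0.26 (adjusted p = 0.231); it was -0.09 after centring on the median. In the central protuberance at the top of the subunit, Mrpl58 and Mrpl46 fell, Mrpl38 rose in the deposited values, and Mrpl18, Mrpl40 and Mrpl48 did not pass. Mrpl18 had the same mean of 8.15 in both groups.

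Of the 48 proteins of the large subunit, with Mrps30 and Mrps18a counted there, 17 rose, 18 fell and 13 did not pass (median 0.01; 9 higher and 18 lower under all 4 scalings). Of the 25 of the small subunit, 6 rose, 7 fell and 12 did not pass (median 0.03; 6 and 7 under all 4 scalings). The 43 genes with a bacterial counterpart gave 13 rises and 15 falls (median 0.00), and the 30 found only in mitochondria 10 and 10 (median 0.09). After centring on the median these medians were -0.18 and -0.16 for the subunits and -0.19 and -0.10 for the classes by origin. Rises and falls thus stood beside each other in each subunit and each class. They do so among all genes too, where 39.6% rose and 20.9% fell, so the mixture is not read as a trait of these subgroups. Differences between the subgroups were not tested.

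In the small subunit, the rises after Mrps31 were of Mrps16, Mrps5, Mrps9, Mrps35 and Mrps15, and the falls were of Mrps17, Mrps18c, Mrps26, Mrps2, Mrps18b, Mrps22 and Mrps11, by 0.18 to 0.38. Mrps5, whose bacterial counterpart contributes to the accuracy of reading, had 9.35, 9.36, 9.42 and 9.47 on EGF arrays and 8.73, 8.64, 8.67 and 8.54 on untreated arrays. Mrps12, the counterpart of the bacterial S12 protein at the decoding site, did not pass: it had 7.72, 7.83, 7.62 and 7.72 on EGF arrays and 7.92, 7.84, 7.95 and 7.77 on untreated arrays. Its arrays overlap, with a log2 fold change of -0.15 (adjusted p = 0.0887), and it passed after centring on the median (-0.34), after cyclic loess (-0.27) and without EGF replicate 2 (-0.18, adjusted p = 0.0470). Mrps34, known for the stability of the small subunit, had 8.07, 8.17, 7.88 and 8.12 on EGF arrays and 7.96, 7.96, 7.68 and 7.80 on untreated arrays, and did not pass either (0.21, adjusted p = 0.0647), but passed without EGF replicate 3 (0.27, adjusted p = 0.0260) and when only genes with a mean of at least 6 were tested (adjusted p = 0.0474).

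Mammals have 3 relatives of the bacterial S18 protein, which sit at different places in the ribosome. Mrps18a, placed in the large subunit, had 6.88, 6.83, 6.79 and 6.91 on EGF arrays and 6.44, 6.55, 6.48 and 6.50 on untreated arrays. It rose by 0.36 ± 0.06 in the deposited values and did not pass after centring on the median (0.17, adjusted p = 0.0543). Mrps18c, which takes the place of the bacterial protein, had 8.23, 8.14, 8.07 and 8.17 on EGF arrays and 8.59, 8.59, 8.43 and 8.43 on untreated arrays, a fall of 0.36 ± 0.07. Mrps18b had 8.09, 8.03, 7.75 and 8.05 on EGF arrays and 8.34, 8.33, 8.11 and 8.26 on untreated arrays. Its gap was narrow, and its fall of 0.28 ± 0.09 (adjusted p = 0.0221) did not pass without untreated replicate 1 (adjusted p = 0.0557) or untreated replicate 2 (adjusted p = 0.0590). So the relatives differed in sign in the deposited values, with no direction settled for Mrps18a.

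Mrps36 carries the family's name, but its protein is known as a part of the alpha-ketoglutarate dehydrogenase complex of the citric acid cycle. It had 7.39, 7.43, 7.50 and 7.40 on EGF arrays and 7.51, 7.38, 7.42 and 7.51 on untreated arrays, which overlap throughout (95% interval of the log2 fold change -0.16 to 0.11, adjusted p = 0.730). After centring on the median it was lower and passed (-0.21, adjusted p = 0.0193). The platform annotation also names copies of Mrpl23, Mrpl48 and Mrps36 marked -ps, and whether their transcripts add to these signals was not tested.

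Proteins of the mitochondrial ribosome that carry other gene names also went both ways. Of 5 measured, Chchd1 rose, Ptcd3 fell and Dap3, Gadd45gip1 and Ndufab1 did not pass. Dap3 was lower and passed under the 3 other scalings (adjusted p = 0.0230 with quantile normalization, 0.0041 after centring and 0.0046 with cyclic loess), and Gadd45gip1 after centring (0.0233) and with cyclic loess (0.0182). Chchd1, a small subunit protein, had 9.25, 9.28, 9.02 and 9.23 on EGF arrays and 8.56, 8.61, 8.55 and 8.25 on untreated arrays, a rise of 0.70 ± 0.09. Ptcd3, a pentatricopeptide repeat protein of the same subunit, had 9.52, 9.48, 9.32 and 9.32 on EGF arrays and 10.08, 9.93, 10.08 and 9.99 on untreated arrays, a fall of 0.61 ± 0.07. The directions of Chchd1 and Ptcd3 held under all 4 scalings.

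Genes that assemble the ribosome, serve it or translate on it were likewise mixed. Of 25 assembly factors 5 rose, 7 fell and 13 did not pass, and their median was -0.11. Under quantile normalization 10 were lower (median -0.12), and 13 were lower after centring on the median (median -0.295) and with cyclic loess (median -0.26), with 5 higher each time. Mettl15, a methyltransferase of the small subunit RNA, rose by 1.04 ± 0.07 and Malsu1, which binds the large subunit late in assembly, by 1.02 ± 0.08, while the pseudouridine synthase gene Trub2 fell by 0.82 ± 0.06. Of 15 translation factors 5 rose, 3 fell and 7 did not pass (median -0.02). After centring on the median 5 were higher and 8 lower (median -0.21), and with cyclic loess 5 and 7 (median -0.13). Guf1, a GTPase related to bacterial LepA, rose by 1.42 ± 0.06, Oxa1l, which inserts new chains into the inner membrane, by 1.17 ± 0.06, and the recycling factor gene Mrrf by 0.70 ± 0.07. Of 16 mitochondrial aminoacyl-tRNA synthetases 7 rose, 5 fell and 4 did not pass (median 0.11; 5 higher and 8 lower after centring on the median, median -0.08), with rises of 1.39 ± 0.08 for Nars2, 0.65 for Lars2 and 0.50 for Iars2.

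Among 11 regulators known for nuclear genes of mitochondrial proteins, 5 rose and 4 fell (median 0.02, and -0.17 after centring). The coactivator gene Ppargc1a had 11.80, 11.97, 11.87 and 11.74 on EGF arrays and 10.72, 10.67, 10.60 and 10.32 on untreated arrays, and rose by 1.27 ± 0.10. Myc, which is known to drive ribosome production, had 10.38, 9.93, 9.80 and 9.84 on EGF arrays and 11.15, 11.35, 11.41 and 11.19 on untreated arrays, and fell by 1.29 ± 0.13. Both directions held under all 4 scalings. Gabpa, an ETS factor gene, rose by 0.31 ± 0.07 in the deposited values and did not pass after centring (0.12, adjusted p = 0.254). Nrf1 (0.02, 95% interval -0.12 to 0.17) and Tfam, which packages mitochondrial DNA (0.05, -0.07 to 0.18), did not pass.

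Most of the measured genes of the cytosolic ribosome and of oxidative phosphorylation rose, beside the mixed counts of the mitochondrial ribosome. Among all genes 39.6% rose and 20.9% fell. Genes without a cluster of their own are not in these lists. Of 43 genes of the cytosolic ribosome chosen by symbol, relatives and retrocopies included, 41 rose and 2 fell, with a median of 0.89 (0.71 after centring). Of 86 genes of oxidative phosphorylation, also chosen by symbol with relatives such as Ndufa4l2 included, 52 rose, 7 fell and 27 did not pass. Their median was 0.40 (0.22 after centring, with 43 higher and 14 lower). The same counts for the mitochondrial ribosome were 23, 25 and 26. Under all 4 scalings 37 rose and 2 fell among the cytosolic genes, 43 and 7 among the oxidative phosphorylation genes and 15 and 25 among the mitochondrial ribosomal genes. Among all genes 18.5% were higher and 20.8% lower under all 4 scalings. The families also differ in brightness, with a median mean signal of 11.07, 10.24 and 8.19 in the same order, and were not matched for it. The difference between these families was described by counts and medians and not tested.

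**Figure D4:**
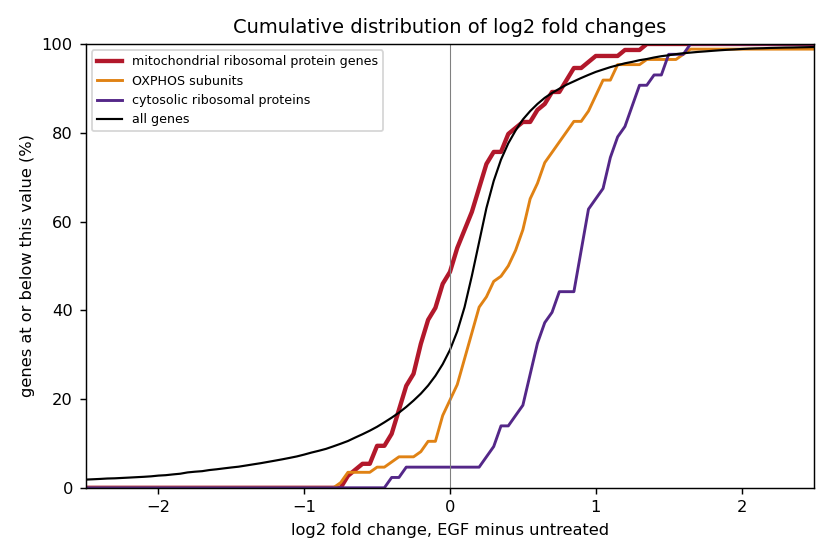
Share of genes (y axis, percent) with a log2 fold change (x axis, EGF minus untreated) at or below each value, for the 74 mitochondrial ribosomal protein genes, 86 oxidative phosphorylation subunits, 43 cytosolic ribosomal proteins and all 30176 genes. The curve of the mitochondrial ribosome crosses 50% near 0.01, that of oxidative phosphorylation near 0.40 and that of the cytosolic ribosome near 0.89, and all genes cross at 0.17.

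The authors' deposited table of changes could not be read as a summary of these array values. In the authors' deposited table, ctrl averages lay within 0.1 of the untreated mean in 8.70% of its 4136 clusters, and its differences (gf minus ctrl) had the same sign as those of the arrays in 85.0% (Pearson's r 0.74 across clusters). All clusters listed in the authors' deposited table have an absolute difference of at least 1. The authors' deposited table lists 2 members: Mrpl38, with averages of 9.39 in gf and 8.30 in ctrl (FDR 0.0157), and Mrps34, with 8.75 in gf and 7.74 in ctrl (FDR 0.00302). On the arrays these genes differed by 0.42 and 0.21. Neither Mrps31 nor Mrpl45, which changed at least 2-fold on the arrays, is listed in the authors' deposited table.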

How the data were processed

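RNA of primary cultures was measured on 8 arrays, 4 titled EGF and 4 titled untreated. The authors deposited log2 signals for 65956 transcript clusters; the log2 scale was taken from the values and the header of the other table, and their centring is unknown. The submitters' processing notes list RMA, affy and limma without a version or a role. A further deposited table holds gf and ctrl averages on the log2 scale with each cluster's p-value and FDR, per the file headers. No source used here states the array's genome build.

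Of the clusters, 30638 had 1 gene symbol in the platform annotation, 2176 several and 33142 none. The cluster with the highest mean was used for 354 genes with several, giving 30176 genes, which were fitted with limma 3.58.1 (R 4.3.3), two-sided. All 74 members matched RefSeq. Tables were handled with Python 3.11.15 and pandas 2.3.3 and plots drawn with matplotlib 3.10.9. The fit was tested on simulated data. The members and lists were chosen with earlier results of these data known. Named members are the 8 largest rises and 8 largest falls among called genes without overlap, a fixed set (Mrpl3, Mrpl11, Mrpl12, Mrpl58, Mrps12, Mrps18a, Mrps18b, Mrps18c, Mrps30, Mrps36), the lowest and highest mean, and members in the authors' table, with up to 3 of the largest called changes of each pathway list and Ppargc1a, Nrf1, Gabpa, Myc and Tfam; other members named in the text, and the places in the ribosome, were chosen after their values were seen. Alternatives were 3 other scalings, a filter at a mean of 6, cluster means, updated symbols, trend and robust eBayes, array weights, a replicate block, each array left out, adjusted p under 0.01 and treat at 1.5-fold. Deviations from the group means of arrays with equal replicate numbers had correlations of -0.084, -0.0029, -0.053 and -0.028. Those of the other pairs lay between -0.166 and 0.176. With 4 arrays per group, these correlations cannot settle whether arrays share a culture.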

Additional observations from a re-analysis of the deposited data

Results flagged for a closer look

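Mrpl42 on untreated replicate 1 was 11.8, standing apart from the other untreated arrays at 11.42 to 11.43. The gap of 0.37 is 0.974 of the group's range, above the 95% critical value of Dixon's test for 4 samples. Among the 148 groups of 4 that the 74 genes give, 5 stood apart in this way, and chance gives about 1 in 20. The rise of Mrpl42 passed without that array too.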

How the results depend on the processing

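The count of members that rose was 23 in the deposited values, 15 after median centring and 5 with treat at 1.5-fold. The count that fell was 25, and 0 with treat at 1.5-fold, also at an unadjusted p under 0.05. Treat asks for more than a 1.5-fold change by its construction. The members' median moved from 0.01 to -0.17 after centring and to -0.11 after cyclic loess. Over all genes, 11959 rose and 6311 fell. Rises were 7154 after quantile normalization, 5657 after centring, 6234 after cyclic loess, 2492 with treat and 7885 at an adjusted p under 0.01. Falls were 2664 with treat. Among the 13928 genes with a mean of at least 6, fitted alone, 5870 rose and 5041 fell. No member changed from a called rise to a called fall, or the reverse, in the 19 alternatives run. Leaving out each array gave 22 to 25 rises and 22 to 26 falls among members, with a median of -0.0079 to 0.033. Nothing in the labels says that equal replicate numbers share a culture. With the replicate block 23 members rose and 25 fell, with 22 of the 23 rises and 25 of the 25 falls kept, and Mrps34 passed there (adjusted p = 0.0382). Signals near the array medians can understate folds, which touches Mrpl41 and Mrpl46, whose means are below 6.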

Other observations

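Genes that bring proteins into mitochondria moved in both directions too. Of 24 measured import and folding genes 11 rose, 6 fell and 7 missed the threshold. Their median log2 fold change was 0.09 (-0.10 after median centring, with 6 higher and 10 lower), and 6 were higher and 6 lower under all 4 scalings. Timm44, a subunit of the import motor whose fold Mrpl45 shares, had 10.41, 10.34, 10.24 and 10.46 on EGF arrays and 8.96, 9.01, 8.92 and 8.87 on untreated arrays. It rose by 1.42 ± 0.07 (SE), and the import receptor gene Tomm20 by 0.90 ± 0.06. The groups of Timm44 were far apart, as those of Mrpl45 were.

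Of 15 genes of mitochondrial transcription and DNA maintenance 7 rose, 4 fell and 4 did not pass (median 0.17, the median of all genes; -0.02 after centring, with 6 higher and 6 lower). Lonp1, the protease of the matrix, had 10.77, 10.70, 10.64 and 10.63 on EGF arrays and 9.35, 9.36, 9.20 and 9.30 on untreated arrays, a rise of 1.38 ± 0.06. Mgme1, a nuclease that works on mitochondrial DNA, rose by 1.05 ± 0.11, and Hsd17b10, a subunit of mitochondrial RNase P, by 0.94 ± 0.06.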
